A study of Gallus gallus with 8 samples.

Results

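The comparison described here is that of chicken embryonic dorsal skin mesenchyme at day 9 of incubation (H&H 35, E9) with the same tissue at day 7 (H&H 31, E7). It takes the 4 mesenchyme libraries of the 8 in the series, 2 a stage, and every gene that reached 1 RPKM (read count scaled for transcript length and for the mapped reads of the library) in at least 2 of the 8 libraries, which were 11155 of the 14642 genes in the table. The other 4 libraries hold the epithelium of the same skin at the same stages. The labels name no treatment, strain or genotype for any group. The tissues were parted in 2x CMF, a calcium- and magnesium-free saline, and the biological replicates of each group are marked batch I and batch II. The sources used here give neither how many embryos went into a library nor their sex.

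The mesenchyme of dorsal skin is the future dermis, a loose tissue of fibroblast precursors that also holds vessels, nerves and pigment cell precursors. Its cells gather beneath the epithelial placodes, and signals that pass in both directions between the tissues (FGF, WNT, BMP, Notch ligands, sonic hedgehog) set out the buds and their growth. Between these stages the dorsal feather buds pass from short to elongated.

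The 4 libraries carried between 22545802 and 32125725 alignments, and replicates correlated at r = 0.9940 (H&H 31) and r = 0.9881 (H&H 35) across genes on the log2 scale. The label was checked against 12 lists of cell type markers, summed per library. Dermal fibroblast markers summed to 4672 and 4538 RPKM in H&H 31 libraries I and II and to 4876 and 4294 in H&H 35 libraries I and II, against 779 to 1032 in the epithelium libraries. TWIST1, a transcription factor of dermal precursors, stood at 82.7, 77.1, 97.2 and 79.4 RPKM in the mesenchyme and at 0.349 or less in the epithelium. The 16 epithelial markers summed to 23.3 and 32.5 RPKM at H&H 31 and to 56.7 and 54.8 at H&H 35, which was 1.62% and 2.27% of the epithelium's own sum at the earlier stage and 1.84% and 1.78% at the later one. The label therefore matched its markers.

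One library stood apart from its replicate in skeletal muscle transcripts. The cardiac-type troponin TNNT2, which embryonic skeletal muscle also uses, read 8.65 RPKM in H&H 35 library I and 0 in library II, the myosin light chain MYL1 10.3 and 0.124, and the muscle-determining factor MYOD1 2.37 and 0.114 (genes chosen after their values were seen). At H&H 31 these genes read 0.336 RPKM or less, apart from MYL1 at 1.16 and 0.829. The 30 skeletal muscle markers in the table summed to 53.5, 58.3, 221 and 104 RPKM in H&H 31 I, H&H 31 II, H&H 35 I and H&H 35 II. Of the 11 tested, 3 rose and 1 fell, with a median log2 change of 0.53. Without H&H 35 library I 3 rose and 2 fell and the median was 0.03, without H&H 35 library II 9 rose and 1 fell, and without H&H 31 library II 1 rose. H&H 31 library I also held 704 RPKM of 5.8S ribosomal RNA against 48.4 to 61.1 in the other 3 mesenchyme libraries.

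**Figure D1:**
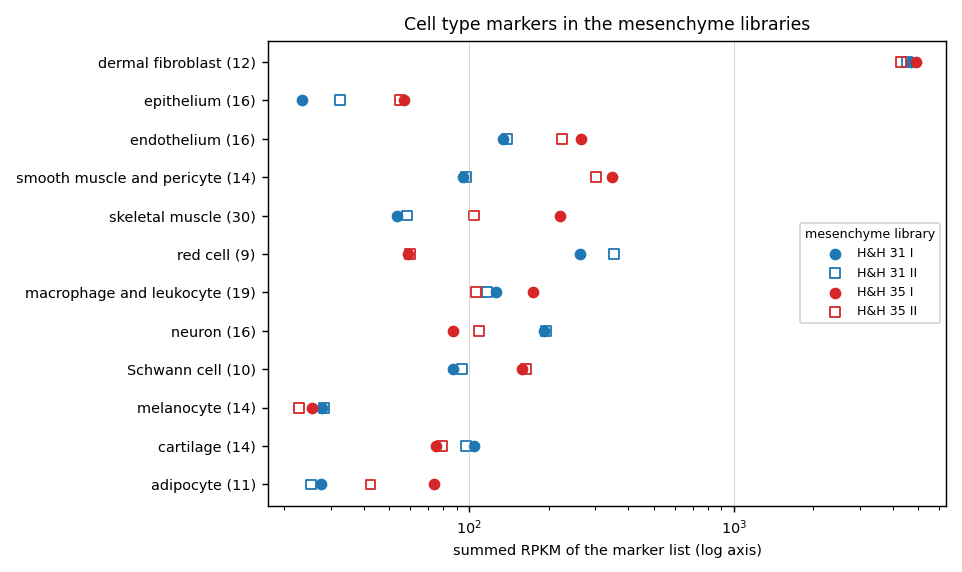
Summed RPKM of each marker list (number of listed genes in the table in parentheses) in the 4 mesenchyme libraries on a log axis, with H&H 31 in blue, H&H 35 in red, batch I as filled circles and batch II as open squares. Fibroblast markers are level between 4294 and 4876, smooth muscle markers rise from 94.5 and 97.5 to 348 and 303, and red cell markers fall from 262 and 354 to 58.7 and 59.8.

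Of the 11155 genes tested, 2031 rose and 2404 fell from H&H 31 to H&H 35 by limma's moderated test at a Benjamini-Hochberg adjusted p under 0.05, which is 39.8% of the genes (18.2% higher and 21.6% lower). These shares are the background against which each gene group below has to be read. The lists and their members were chosen with earlier results of these data known, so a count above these shares is a description. In 70.5% of genes the libraries of the stages did not overlap. The median log2 change over all genes was -0.03. The genes that rose changed more, with a median log2 change of 0.66 against -0.52 for those that fell, and 558 rose by at least 1 log2 unit while 327 fell by as much. They were also less abundant, with a median level of 7.2 RPKM over the stages against 16.9 RPKM for the genes that fell. From an H&H 31 mean under 1 RPKM, 40 genes came to at least 5 RPKM, and 18 went the other way.
Scaling the libraries to an equal sum gave 2248 genes higher and 2018 lower, and median-ratio scaling gave 2367 and 2051. Leaving out H&H 31 library I left 1285 genes higher, and leaving out H&H 31 library II left 1367 lower. Genes said below to rise or fall passed this test, with SEs of 0.07 to 0.57 on the log2(RPKM + 1) scale, which understates the change of genes near 1 RPKM. As these are bulk samples, fewer cells of a type and less RNA per cell cannot be told apart.

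The 15 largest rises among genes with a symbol ranged from 13.2-fold to 88.4-fold in mean RPKM. The ranking took only genes whose stages did not overlap, which held for 70.5% of all tested genes. MASP1, a serine protease of the lectin pathway of complement, read 0.563 and 0.395 RPKM at H&H 31 and 48.3 and 36.4 at H&H 35, a log2 change of 4.86 (SE 0.18, limma adjusted p = 6.32e-07). STOM, the membrane protein stomatin, went from 2.61 and 4.09 RPKM to 72.4 and 77.7. That both libraries of a stage lie on one side in these genes follows from that condition.

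Transcriptional regulators made up 5 of these 15 rises. TRPS1, a GATA-type repressor whose loss in humans affects hair and skeleton, stood at 0.529 and 0.53 RPKM at H&H 31 and at 22.7 and 29.4 at H&H 35 (log2 change 4.13, SE 0.14, limma adjusted p = 5.69e-07). TFAP2C, the AP-2 gamma factor, rose from 0.83 and 0.874 RPKM to 29.7 and 24.7. MYOCD, myocardin, the co-activator of serum response factor in smooth and cardiac muscle, rose from 0.271 and 0.547 RPKM to 19.1 and 19.7. Each of these was under 1 RPKM at the earlier stage. FOXD1, a forkhead factor of stromal cells, was already present at 5.98 and 8.49 RPKM and reached 117 and 112. GLIS1, a zinc finger factor related to the GLI proteins, rose from 0.4 and 0.384 RPKM to 15.8 and 16.5.

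The secreted and surface proteins among the largest rises were modifiers of signals and of matrix. BMPER, which binds BMPs outside the cell, read 3.58 and 3.92 RPKM at H&H 31 and 65.5 and 57.6 at H&H 35 (log2 change 3.72, SE 0.12, limma adjusted p = 4.3e-07). SOSTDC1, a secreted antagonist of BMP and WNT signals, read 9.05 and 11.7 RPKM and then 162 and 117. CRHBP, which binds corticotropin-releasing hormone, read 13.7 and 14.8 RPKM and then 149 and 228, the highest level of the 15. The chemokine-binding receptor CXCR7, a scavenger of CXCL12, rose from 3.36 and 3.75 RPKM to 54.7 and 57.5, and the Notch ligand JAG1 from 2.12 and 2.83 to 36.2 and 41.3. Matrix was represented by TNC, tenascin C, which rose from 2.7 and 2.73 RPKM to 41.8 and 46.7, and by the metalloprotease ADAMTS17, from 0.944 and 1.22 to 25.8 and 34.7. Some of these genes are also abundant in epithelium, so their levels were set against it: the lowest ratio was that of TFAP2C, whose H&H 35 mesenchyme mean of 27.2 RPKM was 35.7% of the epithelium mean, where the epithelial marker sum stood at 1.78% to 1.84%. The part of epithelial RNA in these rises was not tested.

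**Figure D2:**
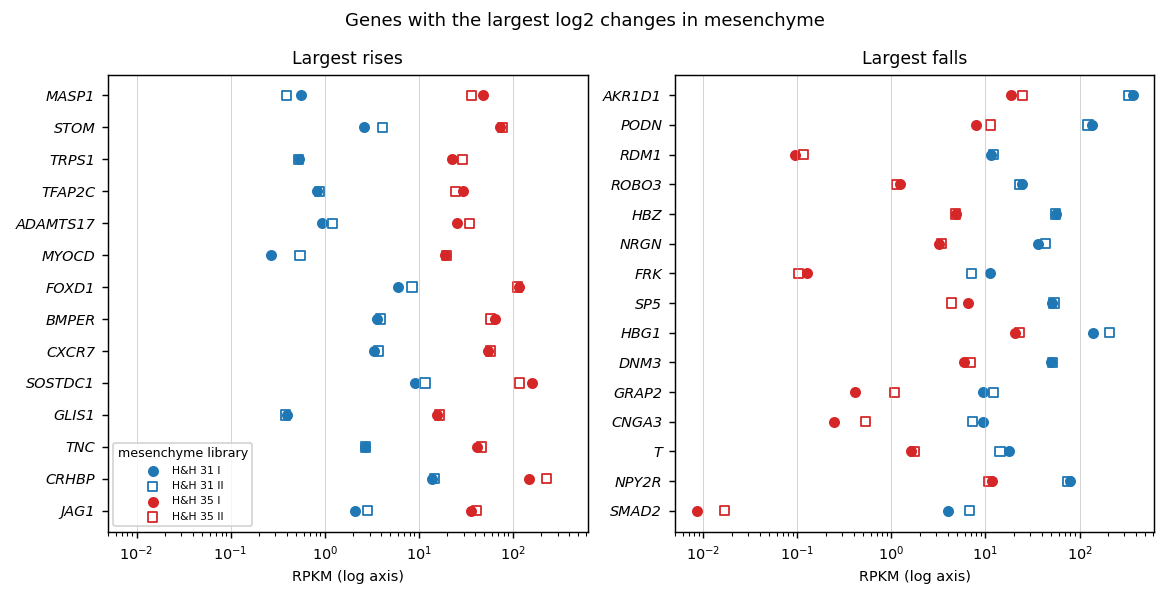
RPKM of 14 of the 15 genes with the largest rises (left) and the 15 with the largest falls (right) in each mesenchyme library, on a log axis, with H&H 31 in blue, H&H 35 in red, batch I filled and batch II open. In each gene both libraries of one stage lie apart from both of the other, which the ranking required. The rises shown run from JAG1 (2.12 and 2.83 against 36.2 and 41.3) to MASP1 (0.563 and 0.395 against 48.3 and 36.4).

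The 15 largest falls ranged from 6.8-fold to 427-fold in mean RPKM. AKR1D1, the steroid 5-beta-reductase, was among the more abundant of all transcripts lost, with 367 and 329 RPKM at H&H 31 and 18.7 and 24.7 at H&H 35 (log2 change -3.95, SE 0.13, limma adjusted p = 4.76e-07). PODN, podocan, a small leucine-rich matrix proteoglycan, fell from 137 and 123 RPKM to 7.91 and 11.2. ROBO3, a receptor of the roundabout family that guides axons and cells, fell from 24.5 and 22.8 RPKM to 1.24 and 1.14 (log2 change -3.49, SE 0.11, limma adjusted p = 4.3e-07). Each of the later means was 0.0731 of the earlier mean or less.

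Signalling and nuclear genes fell with them. SP5, a zinc finger factor induced by canonical WNT signalling, read 51.4 and 53.5 RPKM at H&H 31 and 6.46 and 4.37 at H&H 35. The brachyury gene, listed as T, a T-box factor of early mesoderm, read 17.6 and 14.3 RPKM and then 1.6 and 1.76. NPY2R, a receptor for neuropeptide Y, read 78.3 and 74.6 RPKM and then 11.7 and 10.8. Several of the others are best known from neurons, photoreceptors or blood: NRGN, neurogranin, fell from 35.9 and 43.7 RPKM to 3.18 and 3.42, DNM3, a dynamin, from 49.8 and 51.4 to 5.86 and 6.9, CNGA3, a cyclic nucleotide-gated channel of cones, from 9.43 and 7.34 to 0.244 and 0.534, and GRAP2, an adaptor of T cell signalling, from 9.39 and 12.2 to 0.409 and 1.08. FRK, a tyrosine kinase of the SRC family, fell from 11.3 and 7.14 RPKM to 0.127 and 0.103.

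The last members of this set are globins and a pair of genes with near-absent late values. The embryonic globins HBZ and HBG1 fell from 56.4 and 55.4 RPKM to 4.89 and 4.8 and from 138 and 209 to 20.8 and 23.1. RDM1, a RAD52-motif protein, read 11.4 and 12.2 RPKM and then 0.0937 and 0.116, and in epithelium 18.7 and 19.9 and then 3.86 and 12.9, uneven between the later replicates. SMAD2, a signal transducer of TGF-beta and activin receptors, read 4.04 and 6.75 RPKM and then 0.00847 and 0.0168 (log2 change -2.63, SE 0.57, limma adjusted p = 0.00647), a call lost without H&H 31 library II (adjusted p = 0.0586) or with each gene's own variance (0.0889). In epithelium SMAD2 was uneven too, with 4.54 and 8.15 RPKM at H&H 31 and 3.55 and 0.0307 at H&H 35. The falls of both genes are uncertain, since how reads of overlapping or copied loci were assigned is not given in the sources used here.

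Ranked by RPKM gained or lost and not by ratio, the comparison was led by other genes. FSTL1, a secreted follistatin-like glycoprotein, made one of the large gains, from 322 and 337 RPKM to 828 and 968 (log2 change 1.44, SE 0.11, limma adjusted p = 2.52e-05). The other 9 of the 10 largest gains were ribosomal proteins, described below. The largest losses were those of TMSB4X, the actin-sequestering thymosin beta 4, from 3836 and 3788 RPKM to 2317 and 1912, of LDHB, the heart-type lactate dehydrogenase subunit, from 1100 and 1139 to 257 and 223, and of STMN1, the microtubule-destabilizing protein stathmin, from 1681 and 1693 to 988 and 1021. The remaining losses were PPIA, GAPDH, YBX1, NME2, AKR1D1, HMGN2 and COL1A2. TMSB4X did not pass the test after quantile normalization (adjusted p = 0.0758), the only setting of those run in which it did not.

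Genes of DNA replication and mitosis fell almost without exception. Of 47 tested genes of DNA replication 45 fell and none rose, and of 68 genes of mitosis, spindle and kinetochore 67 fell and 1 rose, with median log2 changes of -0.75 and -0.84. CDC6, which loads the replicative helicase, read 10.1 and 11.1 RPKM at H&H 31 and 4.98 and 3.52 at H&H 35, GINS2, a subunit of that helicase complex, read 22.2 and 23.6 and then 11.2 and 8.59, and MCM3 read 48.8 and 47.2 and then 22.1 and 23.6. PLK1, the polo-like kinase that drives mitotic entry, fell from 98.2 and 97.1 RPKM to 40.3 and 45.7 (log2 change -1.17, SE 0.09, limma adjusted p = 2.71e-05), BIRC5, survivin, from 85.3 and 79.6 to 38.7 and 34.1, and the centromere protein CENPP from 31.3 and 32 to 9.57 and 10.4. The changes ran from -1.16 to -0.03 in the first list and from -1.57 to 0.40 in the second, and the summed level of the mitosis list went from 2540 and 2567 RPKM to 1312 and 1520. The exception was SGOL2, a protector of sister chromatid cohesion, at 4.88 and 5.61 RPKM and then 6.74 and 7.76, a call near the threshold (adjusted p = 0.0483) that was lost when any one of the mesenchyme libraries was left out.

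In epithelium most of these genes moved the other way. There 37 of the 47 replication genes and 62 of the 68 mitosis genes rose and none fell, where 18.6% of all tested genes rose and 15.9% fell, with median log2 changes of 0.52 and 0.65. The test of the difference between the tissues was passed by 44 and 68 of them, where 42.4% of all genes passed. MCM3, for one, went from a mean of 29.9 RPKM to 43.7 in epithelium (n = 2 a stage), and PLK1 at 58.2 and 92.6.

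**Figure D3:**
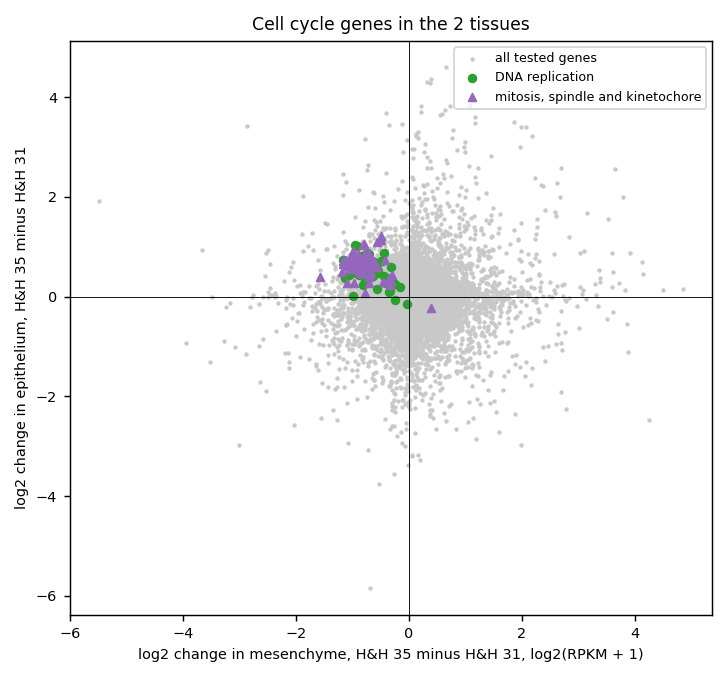
Log2 change from H&H 31 to H&H 35 in mesenchyme (horizontal) and in epithelium (vertical) for all tested genes (grey), genes of DNA replication (green circles) and genes of mitosis (purple triangles). Most coloured points lie in the upper left, lower in mesenchyme (medians -0.75 and -0.84) and higher in epithelium (medians 0.52 and 0.65), apart from SGOL2 at 0.40 in mesenchyme.

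Genes that restrain the cycle did not share one direction. Of 17 tested, 6 rose and 4 fell, the latter being 2 without either H&H 31 library. KLF4, a zinc finger factor of growth arrest and of epidermis, rose from 6.02 and 9.57 RPKM to 61.1 and 43, and CDKN1B, the cyclin-dependent kinase inhibitor p27, from 18.5 and 21.3 to 45.6 and 36.6. The antiproliferative BTG1 fell from 302 and 418 RPKM to 189 and 201, and the retinoblastoma relative RBL1 from 28.9 and 29.7 to 15.6 and 18.5.

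Most smooth muscle and pericyte markers rose. Of 14 tested markers 10 rose and none fell, with a median log2 change of 1.61, and 9 rose without H&H 35 library I. TAGLN, transgelin, an actin-binding protein of smooth muscle, read 0.803 and 0.546 RPKM at H&H 31 and 25.8 and 12.6 at H&H 35 (log2 change 3.51, SE 0.26, limma adjusted p = 2.25e-05). MYH11, the smooth muscle myosin heavy chain, read 0.814 and 0.681 RPKM and then 19 and 14.7, RGS5, a pericyte marker, 1.45 and 1.66 and then 16.4 and 16.9, and SYNPO2, an actin-bundling protein, 1.99 and 1.53 and then 12.1 and 13.1. The later libraries did not overlap the earlier ones in 13 of the 14, where 70.5% of all tested genes did not overlap. The wider list of actomyosin and cell movement genes went both ways, with 12 of 44 higher and 12 lower, counts that were the same without H&H 35 library I. Its risers included MYOCD, the LIM proteins CSRP1 (3.09 and 3.62 RPKM, then 25 and 15.8) and CSRP2 (2.45 and 2.91, then 14.9 and 18) and PDLIM3 (0.213 and 0.17, then 6.14 and 2.99), and its fallers included FHL2 (34 and 26 RPKM, then 13.6 and 13.4) and ACTB, cytoplasmic beta actin (173 and 189, then 107 and 107). PDLIM3 and CSRP1, like TAGLN, were higher in H&H 35 library I, the library with skeletal muscle transcripts, than in library II, and each kept its call with that library left out, as did MYH11, SYNPO2, MYOCD, CSRP2, FHL2 and ACTB.

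Most endothelial markers rose as well. Of 16 tested, 12 rose and none fell (1 fell without H&H 35 library II), with a median log2 change of 0.84 and summed levels of 134 and 139 RPKM at H&H 31 and 265 and 225 at H&H 35. EGFL7, a secreted endothelial protein, read 10.7 and 12.3 RPKM and then 39.4 and 29, VWF, von Willebrand factor, 3.29 and 3.6 and then 11.8 and 9.62, and LYVE1, a receptor of lymphatic vessels, 2.92 and 2.83 and then 8.39 and 5.63. SOX18, a SOX factor of vessels that is also used in hair follicle dermis of mice, rose further, from 5.34 and 6.21 RPKM to 67.5 and 71.1 (log2 change 3.38, SE 0.11, limma adjusted p = 4.76e-07). Genes of IGF, PDGF, VEGF and endothelin signals gave 20 of 37 higher and 3 lower (13 higher without H&H 31 library I). Among them were IGF2, a growth factor (6.33 and 7.03 RPKM, then 22.3 and 22.3), IGFBP5, which binds it (7.46 and 7.94, then 25.7 and 18.9), and EDNRA, the endothelin A receptor (37.4 and 36.3, then 95.5 and 74.3). The RNA-binding proteins IGF2BP1 and IGF2BP3 fell, the latter from 45.2 and 45.3 RPKM to 25.6 and 31.4.

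Among genes of the extracellular matrix more rose than fell in every list. For collagens the counts were 15 higher and 5 lower of 30, for elastic fibre, matricellular and cross-linking genes 28 and 11 of 50, for proteoglycans and link proteins 13 and 7 of 30, for matrix proteases and their inhibitors 18 and 7 of 45, and for integrins, laminins and nidogens 12 and 6 of 29. The median log2 changes were 0.43, 0.52, 0.29, 0.25 and 0.12 in that order. Collagens that fell numbered 3 without H&H 31 library II or H&H 35 library I.

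Basement membrane components were among the leading risers. COL18A1, the collagen that yields endostatin, read 12.6 and 12.6 RPKM at H&H 31 and 94.6 and 81.2 at H&H 35 (log2 change 2.70, SE 0.09, limma adjusted p = 4.76e-07), COL4A5 read 2.07 and 2.23 and then 20 and 15.7, and COL4A6 1.46 and 1.41 and then 10.1 and 8.69. LAMA2, the laminin chain of muscle and vessel basement membranes, rose from 1.5 and 1.44 RPKM to 23 and 18.7, and NID1, which links laminin to collagen IV, from 49.3 and 56.6 to 163 and 140. LAMA1, the embryonic laminin chain, went the other way, from 49.1 and 49 RPKM to 7.51 and 14.1. Of the matrix integrin subunits, ITGB3 rose from 3.57 and 4.04 RPKM to 23.1 and 22, while ITGA11, a collagen receptor of mesenchymal cells, fell from 8.93 and 7.49 to 2.93 and 2.72.

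The fibrillar and interstitial matrix was mixed. COL3A1 rose from 200 and 173 RPKM to 440 and 350, and COL1A2 fell from 1214 and 984 to 839 and 794 (adjusted p = 0.0204), a call lost without H&H 31 library I or H&H 35 library II. FBLN2, fibulin 2, of elastic fibres and basement membranes, rose from 19.5 and 20.3 RPKM to 122 and 128, SPON2 from 0.174 and 0.264 to 6.32 and 5.8, and TGFBI, a matrix protein induced by TGF-beta, from 5.55 and 5.91 to 43.8 and 37.2. NPNT, nephronectin, a ligand of integrin alpha 8 beta 1, fell from 122 and 130 RPKM to 32.6 and 34.7 (log2 change -1.87, SE 0.08, limma adjusted p = 1.03e-06), CTHRC1 from 33.1 and 31.1 to 10.6 and 9.14, and the latent TGF-beta binding protein LTBP2 from 45.7 and 48.5 to 17.3 and 13.4. In NPNT, CTHRC1 and LTBP2 the stages were well apart.

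Proteoglycans and proteases also changed in both directions. GPC3, a glypican that binds growth factors, rose from 1.26 and 0.463 RPKM to 7.68 and 8.36, HAPLN1, the link protein of hyaluronan and aggrecan, from 3.88 and 3.49 to 24 and 14, and MATN2 from 0.133 and 0.107 to 3.19 and 1.96. Beside PODN, the syndecans SDC1 (86.1 and 80.9 RPKM, then 31.1 and 28.7) and SDC3 (108 and 107, then 43.8 and 51) fell. Among the ADAMTS proteases, ADAMTS19 rose from 0.271 and 0.266 RPKM to 5.96 and 4.32 and ADAMTS2, which trims procollagen, from 3.58 and 4.37 to 20.2 and 20.1, while ADAMTS8 fell from 19 and 19.9 to 2.91 and 2.14. MMP11, stromelysin 3, fell from 26.7 and 27.2 RPKM to 10.5 and 10.9.

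Signalling genes were examined by pathway. In the hedgehog pathway 6 of 14 rose and 2 fell (1 without H&H 31 library I, H&H 31 library II or H&H 35 library I). PTCH1, a hedgehog receptor that is also transcribed in response to the pathway, read 3.96 and 5.13 RPKM at H&H 31 and 24.9 and 28.9 at H&H 35, a log2 change of 2.34 (SE 0.13, limma adjusted p = 4.5e-06). HHIP, which binds hedgehog proteins, rose from 17.2 and 19 RPKM to 26.4 and 32.4, and CDON, a co-receptor, fell from 41.1 and 42 to 27.2 and 25.5. The ligand SHH itself read 0 and 0.101 RPKM and then 1.37 and 1.09 in mesenchyme (log2 change 1.09, SE 0.13). Its H&H 35 mean was 1.16% of the epithelium mean of 106 RPKM, below that of the epithelial marker sum, while PTCH1 stood at 196% of its epithelium mean. The part of epithelial RNA in the SHH rise was not tested.

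Most epithelial markers rose in the same libraries. Of 16 tested, 11 rose and 1 fell (none without H&H 31 library II, H&H 35 library I or either H&H 31 epithelium library), with a median log2 change of 0.73. KRT5, a basal keratin, read 0.295 and 0.413 RPKM and then 4.36 and 3.62 in mesenchyme, which at H&H 35 was 1.27% of the epithelium mean, and CLDN1, a tight junction protein, 0.439 and 0.432 and then 2.56 and 2.65, or 1.15%. In epithelium itself 10 of the 16 rose and none fell, with a median of 0.75.

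WNT pathway genes changed in both directions, with 21 of 57 higher (36.8%) and 15 lower (26.3%), against 18.2% and 21.6% of all tested genes. Besides SOSTDC1, the frizzled-related inhibitor SFRP2 rose from 15.1 and 15.2 RPKM to 143 and 116 (log2 change 3.01, SE 0.17, limma adjusted p = 4.85e-06), LGR5, a receptor for R-spondins, from 10.6 and 8.05 to 59.4 and 47.9, and the nuclear effector TCF7L2 from 4.83 and 5.56 to 21.9 and 26. Besides SP5, the ligand WNT9A fell from 14 and 16.8 RPKM to 1.75 and 3.82, KREMEN1, a receptor for Dickkopf inhibitors, from 33.6 and 38.3 to 7.22 and 9.33, and RNF43, a ligase that removes frizzled receptors and is induced by WNT signalling, from 4.42 and 5.07 to 0.692 and 0.734. CTNNB1, beta-catenin, read 328 and 335 RPKM and then 284 and 330 and did not pass the test (adjusted p = 0.386). WNT7A, a ligand of the epithelium, read 0, 0.406, 0.0944 and 0.188 RPKM and could not be ordered by stage.

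Of 46 BMP and TGF-beta genes 16 rose and 10 fell (5 fell without H&H 31 library II). The ligand BMP6 read 1.51 and 1.5 RPKM and then 25.1 and 25.3 (log2 change 3.39, SE 0.09, limma adjusted p = 2.64e-07), and GDF10 read 0.67 and 0.709 and then 14.8 and 10.1. Other ligands fell: BMP2 from 14.5 and 18.4 RPKM to 6.95 and 9.21, a call lost without H&H 31 library II or H&H 35 library I, and INHBA, the activin A subunit, from 13 and 12.6 to 5.14 and 7.47. The activin receptor ACVR2A fell from 35.4 and 37.1 RPKM to 17.4 and 21.2.

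FGF genes went both ways. Of 26 tested, 7 rose (26.9%) and 6 fell (23.1%), not far from the 18.2% and 21.6% of all tested genes. The ligands FGF7 (3.24 and 3.97 RPKM, then 18.1 and 16), FGF18 (1.54 and 1.82, then 7.54 and 6.9) and FGF10 (2.86 and 3.35, then 7.24 and 11.4) rose. DUSP4, a phosphatase of MAP kinases, fell from 9.13 and 7.71 RPKM to 3.33 and 3.1, and IL17RD, an inhibitor of FGF receptors, and ETV4, a factor downstream of them, fell from 18.2 and 22.3 to 10.7 and 11.7 and from 12.9 and 15.8 to 8.69 and 8.22. SPRED2, another inhibitor of the pathway, lost its call without H&H 31 library II.

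Of 21 Notch genes tested 12 rose and none fell, while 9 did not pass, with a median log2 change of 0.52. After JAG1 came the ligand DLL1, from 1.46 and 2.45 RPKM to 14.3 and 19 (log2 change 2.59, SE 0.18, limma adjusted p = 1.58e-05), the target HEY1, from 5.75 and 5.76 to 23.6 and 20.4, and the ligase DTX1, from 1.82 and 3.07 to 8.07 and 8.11.

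Retinoic acid genes and chemokines gave a few large rises. Of 12 retinoic acid genes 5 rose and 1 fell (3 fell without H&H 35 library I and none without any other of the mesenchyme libraries). CYP26B1, which breaks retinoic acid down, read 3.79 and 3.78 RPKM and then 34.5 and 32 (log2 change 2.84, SE 0.13, limma adjusted p = 1.83e-06), STRA6, the retinol transporter, 9.81 and 8.39 and then 51 and 29.6, and RDH10, of the first step of synthesis, 6.44 and 6.41 and then 18.2 and 16.2. Of 9 chemokine genes 2 rose and 1 fell, with more falls without H&H 35 library I. CXCR7 and its ligand CXCL12 rose, the latter from 0.791 and 0.926 RPKM to 11.5 and 11.7. JSC, the chicken CXCL14, fell from 76.1 and 79.8 RPKM to 39.2 and 16.8. It was higher in epithelium, at means of 829 and then 153 RPKM, of which its mesenchyme means were 9.41% and 18.3%. The part of epithelial RNA in the fall of JSC was not tested.

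Guidance ligands and receptors gave 21 of 56 higher and 14 lower (13 and 8 without H&H 31 library I, and 8 lower without H&H 31 library II). Among secreted semaphorins SEMA3A rose from 3.58 and 4.08 RPKM to 22.5 and 29.2, SEMA3C from 4.12 and 5.38 to 26.5 and 26, and SEMA3G from 3.36 and 4.48 to 22.9 and 17. The netrin receptor UNC5D rose from 0.419 and 0.356 RPKM to 3.77 and 6.37. On the other side, ROBO3 fell with the transmembrane semaphorin SEMA5B, from 31.1 and 27.5 RPKM to 13.6 and 14.3, and the semaphorin co-receptor PLXNA4, from 6.6 and 5.49 to 2.45 and 3.11.

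**Figure D4:**
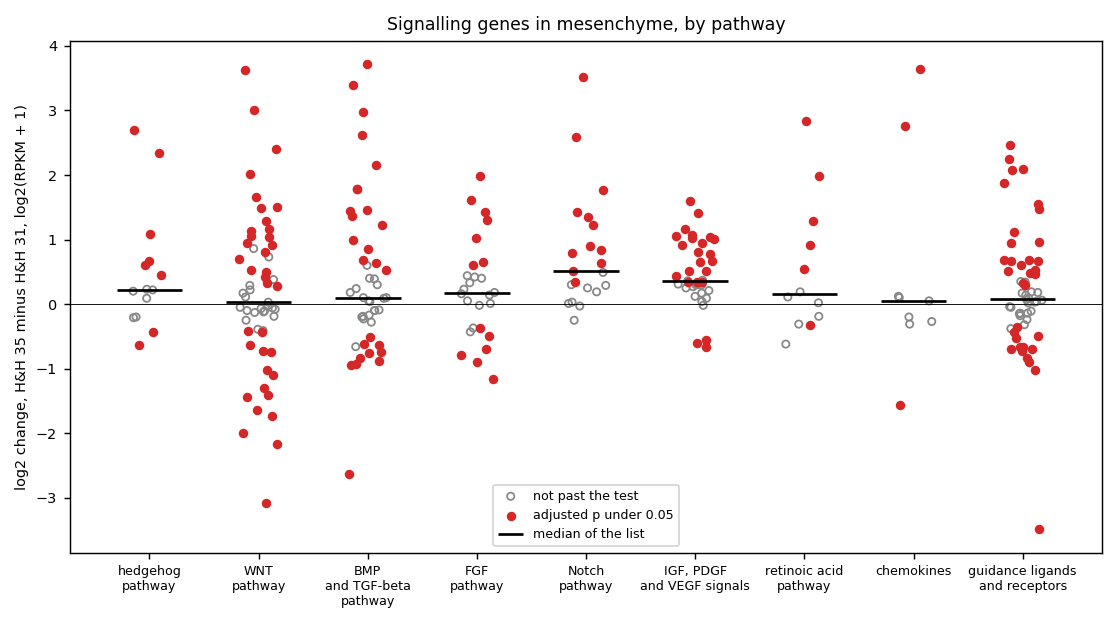
Log2 change from H&H 31 to H&H 35 in mesenchyme of each tested gene of 9 signalling lists, with filled red points for genes past the test, open grey points for the rest and a black bar at the list's median. Notch genes show 12 red points above 0 and none below, and the WNT list shows 21 above and 15 below.

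Cell adhesion genes of the cadherin group gave 13 of 38 higher and 4 lower (7 lower after quantile normalization, and 2 without H&H 31 library I, H&H 31 library II or H&H 35 library I). PCDH1 rose from 4.54 and 4.84 RPKM to 14.6 and 12.8 and ALCAM, an immunoglobulin-type adhesion protein, from 37.3 and 51.5 to 96.7 and 94.4. CLSTN1, calsyntenin 1, fell from 173 and 211 RPKM to 33.1 and 51 (log2 change -2.19, SE 0.19, limma adjusted p = 5.4e-05), and PCDH10 from 10.5 and 8.97 to 3.72 and 3.15. CDH2, N-cadherin, read 29.4 and 30.4 RPKM and then 19.5 and 22.3, a call (adjusted p = 0.0112) lost without H&H 31 library I, H&H 31 library II or H&H 35 library I.

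Transcription factors of dermis and mesoderm changed in both directions, 20 of 55 higher and 13 lower (8 lower without H&H 31 library II). After TRPS1, the homeobox factor MEOX2 rose from 4.78 and 6.11 RPKM to 31.2 and 23.5, EBF1 from 1.02 and 1.05 to 7.09 and 7.11 and EYA4 from 0.218 and 0.168 to 3.07 and 2.25. IRX5, an Iroquois factor, showed the strongest fall of the list, from 139 and 153 RPKM to 29.5 and 34.6 (log2 change -2.16, SE 0.12, limma adjusted p = 4.4e-06). IRX4 fell from 4.52 and 5.73 RPKM to 2.18 and 1.09. Its means were 3.03% and 2.67% of those of epithelium, which read 169 and then 61.3 RPKM. The part of epithelial RNA in the fall of IRX4 was not tested. Among dermal markers, PRRX1 rose from 125 and 150 RPKM to 218 and 235 and FBLN1 from 52.5 and 54.2 to 109 and 106, while CDERMO-1, the chicken Dermo-1 factor of early dermis, fell from 669 and 586 to 392 and 374. The fibroblast list as a whole had 6 of 12 higher and 2 lower (1 lower without H&H 31 library I or H&H 35 library II, 3 lower without H&H 35 library I, and 4 higher without H&H 31 library II). VIM, the mesenchymal filament protein vimentin, read 1478 and 1595 RPKM and then 1493 and 1227 and did not pass the test (adjusted p = 0.187).

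Of 26 SOX and FOX factors 10 rose and 6 fell (5 rose without H&H 31 library I and 6 without H&H 31 library II). After FOXD1 and SOX18, SOX13 rose from 2.44 and 2.41 RPKM to 13.1 and 9.85. FOXP4 fell from 13.2 and 15.2 RPKM to 3.64 and 4.51, SOX11, of progenitor cells, from 20.5 and 21.5 to 8.58 and 10.7, and FOXM1, a driver of mitotic genes, from 43.1 and 43 to 21.7 and 24.4. HOX cluster genes moved little, 3 of 21 higher and 6 lower, between -0.69 and 0.48 on the log2 scale. Their counts rested on few libraries, with none higher and 3 lower without H&H 31 library I, 2 lower without H&H 31 library II and 3 lower without H&H 35 library I. HOXB9 fell from 24.4 and 28.6 RPKM to 14.2 and 17.9 and kept its call in each of these.

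Among genes of energy metabolism and of the mitochondrion more fell than rose, though most did not pass in the lists of the mitochondrion. Of 53 subunits of the respiratory chain and ATP synthase 20 fell and 1 rose, and of 59 mitochondrial ribosomal proteins 25 fell and none rose, with median log2 changes of -0.30 and -0.32. The changes were small: ATP5B, a catalytic subunit of ATP synthase, read 339 and 348 RPKM and then 242 and 234, and MRPL10 read 32.2 and 28.8 and then 18.5 and 15.8. Without H&H 31 library I, H&H 31 library II or H&H 35 library II the counts of falls were 11, 6 and 5 for the first list and 16, 7 and 7 for the second, of which 1 rose without H&H 31 library I, H&H 35 library II or either H&H 35 epithelium library and 2 with the batch number as a block. After quantile normalization 13 of the first list fell.

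Of 28 glycolysis and hypoxia-response genes 13 fell and 6 rose (8 fell without either H&H 31 library, and 3 rose without H&H 31 library II). LDHB fell by 2.22 on the log2 scale (SE 0.11, limma adjusted p = 2.06e-06), PFKP, platelet-type phosphofructokinase, from 63.4 and 57.2 RPKM to 22.8 and 22.5, CA9, a carbonic anhydrase induced by hypoxia, from 52.8 and 53.7 to 22.8 and 21.1, and PKM, pyruvate kinase, from 234 and 213 to 124 and 112. ADM, the vessel-dilating peptide adrenomedullin, rose from 4.18 and 2.97 RPKM to 12.1 and 7.12. Of 19 cholesterol synthesis genes 12 fell and 1 rose (7, 3 and 4 fell and none rose without H&H 31 library I, H&H 31 library II and H&H 35 library II in turn). FDFT1, squalene synthase, fell from 13.7 and 13 RPKM to 6.96 and 5.21.

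Of 65 cytosolic ribosomal proteins tested 18 rose and none fell, with a median log2 change of 0.24, and 61 had a positive change. RPS13 read 512 and 583 RPKM and then 890 and 780 (log2 change 0.61, SE 0.10, limma adjusted p = 0.00176), and RPL17L read 1474 and 1330 and then 2335 and 1894. The count depended on single libraries and on scaling. It was 8, 3, 4 and 33 without H&H 31 library I, H&H 31 library II, H&H 35 library I and H&H 35 library II, 10 without either H&H 31 epithelium library, 40 and 28 after equal-sum and median-ratio scaling, 9 without the filter on low values and 5 with the mesenchyme libraries alone. None of these turned the median below 0.

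Genes that handle RNA and chromatin fell more often than they rose, 23 against 2 of 48 splicing factors and hnRNPs and 20 against 5 of 51 chromatin genes. HMGA2, an architectural protein of embryonic cells, fell from 49.1 and 49.4 RPKM to 15.1 and 10.5 (log2 change -1.89, SE 0.31, limma adjusted p = 0.00143), HELLS, a remodeller tied to DNA methylation, from 41.8 and 44.1 to 19.8 and 22.4, and the small nuclear ribonucleoprotein SNRPF from 154 and 160 to 103 and 94.6. SRSF5, a splicing factor, rose from 73.1 and 77.2 RPKM to 131 and 143. Chromatin genes that fell numbered 13 and those that rose none without H&H 31 library II. Those that rose numbered 2 and 3 without H&H 31 library I and H&H 35 library II, and 8 after median-ratio scaling or quantile normalization. Of 35 chaperones 3 rose (8.57%) and 7 fell (20%), against 18.2% and 21.6% of all tested genes, so their falls stood near the background share. The falls were fewer without H&H 31 library II or H&H 35 library II. They numbered 4 after quantile normalization, under which 8 rose (5 after equal-sum scaling).

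Ion channels and gap junction genes bear on the electrical coupling of mesenchyme that the study addressed. Of 14 voltage-gated calcium channel genes 5 rose and 3 fell. CACNA1C, the pore of the L-type channel, read 1.72 and 1.85 RPKM at H&H 31 and 5.02 and 5.97 at H&H 35 (log2 change 1.22, SE 0.12, limma adjusted p = 0.000121), and CACNA1H, a T-type pore, 3.23 and 3.16 and then 5.4 and 5.94. CACNA1B, the N-type pore, fell from 1.13 and 1.16 RPKM to 0.235 and 0.217. STIM1, the calcium sensor of the endoplasmic reticulum, rose from 7.98 and 8.22 RPKM to 15.3 and 13.8, while its channel partner ORAI1 read 6.18 and 5.73 and then 3.88 and 4.63, a fall (adjusted p = 0.028) lost after equal-sum scaling and without H&H 31 library I, H&H 31 library II or H&H 35 library I. PKD2, a cation channel, rose from 19.6 and 18.2 RPKM to 28.7 and 30.7.

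Of 11 connexins and pannexins 5 rose and 1 fell (1, 3 and 2 rose without H&H 31 library I, H&H 31 library II and H&H 35 library I). GJA1, connexin 43, was by far the most abundant, at 492 and 549 RPKM and then 698 and 737 (log2 change 0.46, SE 0.10, limma adjusted p = 0.00718), a call lost without H&H 31 library I. GJA4, connexin 37 of vessels, rose from 2.92 and 3.22 RPKM to 10 and 7.31, and PANX1 fell from 5.24 and 4.47 to 2.4 and 3.05. Of 38 potassium channel genes 15 rose and 4 fell. KCNS3 rose from 0.311 and 0.274 RPKM to 6.42 and 4.63 and KCNIP2 from 0.0699 and 0.0559 to 4.43 and 1.99, and KCNT1 fell from 1.26 and 1.84 to 0.129 and 0.128. The counts for this list were 9 higher without H&H 31 library II, 1 and 2 lower without H&H 31 library I and H&H 35 library I, and 24 higher without the filter on low values. KCNMA1, the large-conductance channel, read 2.02 and 1.73 RPKM and then 1.34 and 2.19, and its libraries overlapped. Solute carriers, with 33 higher and 30 lower of 167 (19 lower without H&H 31 library II), stayed near the background shares. SLC18A2, the vesicular monoamine transporter, fell from 17.7 and 15.7 RPKM to 3.26 and 1.7 and SLC15A2, a peptide transporter, from 40.4 and 27.8 to 7.8 and 6.37, while SLC6A17 rose from 0.685 and 0.722 to 6.81 and 5.05.

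Markers of the other cell types that dorsal skin can hold were read in the same way. Of 9 red cell genes 3 fell, the embryonic globins HBZ, HBG1 and HBE (48.9 and 67.8 RPKM, then 11.7 and 12.4), and 1 rose, KLF1, an erythroid transcription factor (0.426 and 1.08, then 1.8 and 1.62), a call lost without H&H 31 library I or H&H 35 library I (3 red cell genes rose without H&H 31 library II). At H&H 35 KLF1 was higher in epithelium, at a mean of 6.74 RPKM, where the means of these globins were 0.538 or less. Of 10 neuronal genes 3 fell and 1 rose. Without H&H 35 library I 3 rose, without any other of the mesenchyme libraries none did, and 5 fell without H&H 35 library II. Of the fallers, GAP43, a protein of growing axons, went from 13.6 and 9.94 RPKM to 1.33 and 1.13, TUBB3, a neuronal tubulin, from 120 and 131 to 42.8 and 46.2, and ELAVL4 from 8.48 and 8.2 to 3.32 and 4.22. In epithelium 6 of the 10 fell and none rose, where 15.9% of all tested genes fell. There TUBB3 read means of 168 and 97.2 RPKM, ELAVL4 5.09 and 2.13, and GAP43 0.016 and 0.0839. The 16 neuronal markers in the table summed to 253 and 285 RPKM in H&H 31 epithelium and to 192 and 196 in H&H 31 mesenchyme. Of 7 Schwann cell genes 2 rose and 1 fell (2 fell without H&H 35 library I and none without any other of the mesenchyme libraries). NGFR, the low-affinity neurotrophin receptor, which dermal cells can also express, rose from 1.98 and 2.42 RPKM to 23.9 and 27.9 (log2 change 3.07, SE 0.13, limma adjusted p = 1.2e-06), and PMP22 from 33.5 and 40.3 to 82.9 and 99.4, whereas SOX10, of neural crest cells, read 8.67 and 9.17 and then 7.06 and 5.89.

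Pigment cell genes did not move as one, with 4 of 14 higher and 4 lower. EDNRB2, the endothelin receptor of avian melanoblasts, fell from 6.83 and 6.8 RPKM to 1.17 and 0.777 (log2 change -1.99, SE 0.13, limma adjusted p = 1.1e-05), and MITF, the master factor of the lineage, rose from 2.68 and 2.98 to 4.68 and 5.29. The pigment cell markers summed to 22.8 to 28.3 RPKM in the mesenchyme libraries and to 321 to 523 in those of epithelium. Mesenchyme means were 6.45% and then 1.29% of those of epithelium for EDNRB2, and 14.5% and 20.1% for MITF. The part of epithelial RNA in these changes was not tested. Only 1 gene was called in each direction without either H&H 31 library, 2 rose without either H&H 35 library or with the mesenchyme libraries alone, and 1 rose after quantile normalization. Of 7 adipocyte genes 5 rose and none fell (1 fell without H&H 35 library I), among them CD36, a fatty acid receptor shared with vessels (2.41 and 2.62 RPKM, then 10.6 and 8.41), CEBPA (4.71 and 3.63, then 16.1 and 10.6) and PPARG, the master factor of fat cells (0.834 and 0.76, then 4.14 and 3.6). The 11 adipocyte markers in the table summed in mesenchyme to 27.6 and 25.3 RPKM, then to an uneven 73.8 and 42.4. By stage these sums were 29.6% and then 54.5% of those of epithelium. There PPARG read means of 9.91 and then 17.9 RPKM and CEBPA 3.27 and 28.9, while CD36 was low, at 0.0107 and 0.077. The part of epithelial RNA in the rises of PPARG and CEBPA was not tested. Cartilage genes gave 4 of 9 higher and 3 lower, with LECT1, chondromodulin, falling from 44.8 and 44.6 RPKM to 11.6 and 19.2. SOX9 was low at both stages, with means of 0.116 and then 0.474 RPKM and 0.537 or less in each mesenchyme library. The rises of cartilage genes numbered 2 with a minimum of 5 RPKM or after quantile normalization and 1 without H&H 31 library II. Of 18 macrophage and leukocyte genes 1 rose and 2 fell, with a median log2 change of 0.16. Without H&H 35 library I 1 rose and 3 fell and the median was -0.10, without H&H 35 library II 7 rose and 2 fell and the median was 0.40, without either H&H 31 library none rose, 1 fell without H&H 31 library II, and 2 rose with the batch number as a block. The markers summed to 126 and 117 RPKM at H&H 31 and to 175 and 106 at H&H 35, so that H&H 35 library I stood apart here too. CD3E, a T cell receptor subunit, fell from 5.14 and 4.88 RPKM to 0.351 and 0.413. It was higher in epithelium, at means of 14.2 and then 5.13 RPKM, of which its mesenchyme means were 35.3% and 7.45%. The part of epithelial RNA in the fall of CD3E was not tested.

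Immediate early genes, which can respond to handling of tissue, gave 6 of 17 higher and 3 lower. MYC rose from 1.75 and 3.33 RPKM to 7.97 and 7.76, and CYR61 read 15.7 and 8.71 and then 6.48 and 3.98, a call lost without H&H 31 library I or H&H 35 library II. The rises numbered 3 without H&H 31 library II or H&H 35 library I. The falls numbered 1 without H&H 31 library I, H&H 31 library II or H&H 35 library II and without the filter on low values, 5 without either H&H 31 epithelium library or with the mesenchyme libraries alone.

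**Figure D5:**
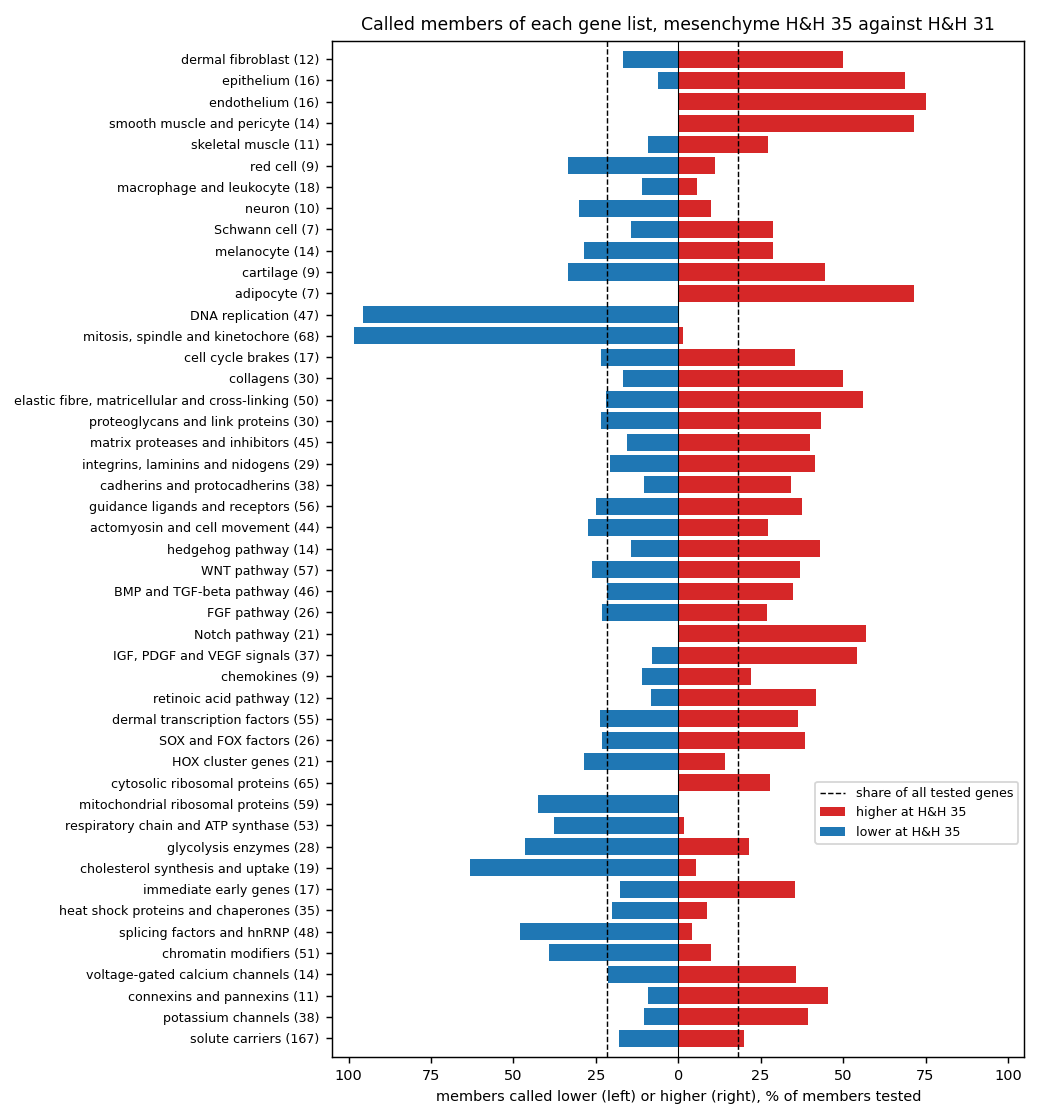
Share of the tested members of each gene list (number tested in parentheses) that were called lower (blue, left) or higher (red, right) at H&H 35 in mesenchyme, with dashed lines at the shares among all tested genes, 21.6% lower and 18.2% higher. DNA replication and mitosis genes stand at the left end with 45 of 47 and 67 of 68 lower. Furthest right are the endothelial (12 of 16 higher), smooth muscle (10 of 14), adipocyte (5 of 7) and epithelial markers (11 of 16).

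The stage change of mesenchyme was set against that of epithelium, with which it shares no library. Both changes came from the same fit, where all groups share the estimate of a gene's spread, so calls in the tissues are not independent. In epithelium 2070 genes rose and 1772 fell, 18.6% and 15.9% of those tested. Of 1832 genes called in both tissues, 451 rose in both, 376 fell in both, 382 rose in mesenchyme and fell in epithelium, and 623 fell in mesenchyme and rose in epithelium. Across the 11155 genes, which are not independent, the changes in the tissues correlated at r = 0.04. The difference between the tissues itself was past the test in 4730 genes, 42.4% of those tested, with the mesenchyme change above that of epithelium in 2166 and below it in 2564. Equal-sum scaling turned these counts to 2682 and 1840, and median-ratio scaling gave 2499 and 2145.

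Of the 15 largest rises, 6 rose in epithelium as well, 3 fell there and 6 did not pass, which is to be read against those shares. ADAMTS17 fell in epithelium from 70 to 32.3 RPKM (means, n = 2) and stood close to the 30.2 RPKM of mesenchyme at the end. SOSTDC1 stood at 140 RPKM in mesenchyme and 127 in epithelium at H&H 35, after means of 10.4 and 162 at H&H 31. CXCR7 rose in both, in epithelium from 7.49 to 49.3 RPKM. Of the 15 largest falls, 6 fell in epithelium as well, 1 rose (PODN, from 2 to 4.74 RPKM) and 8 did not pass.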

How the data were processed

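RNA-Seq libraries (TruSeq version 2, which does not mark strand, single-end reads) were made from dorsal skin epithelium and mesenchyme. The table deposited by the authors holds RPKM per gene, that is reads scaled by transcript length and mapped reads, with the number of alignments of each library as a count. The submitters' processing notes name TopHat2, Partek and the galGal4 build; versions are not given in the sources used here. Counts of reads per gene were not used here, and precision is limited by the 2 libraries a group. Reads of overlapping or antisense genes cannot be told apart.

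Groups were taken from the labels. All 14642 gene columns of the table were read; unit and sample mapping were recorded column by column for 2345 of them, and the other 12297, whose values were never below 0 and in no column above 0 only whole, were taken to hold the same RPKM unit. Genes with at least 1 RPKM in 2 of the 8 libraries (11155) were fitted on log2(RPKM + 1) with limma 3.58.1 in R 4.3.3, with 4 group means, a variance trend (eBayes) and Benjamini-Hochberg adjustment over all tested genes. An adjusted p under 0.05 was called. The stage change was tested in mesenchyme, and its difference from that in epithelium as an interaction contrast. P-values measure the spread between these libraries. The fit was tested on simulated data.

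The labels call the replicate number a batch. Over genes, the deviations of the batch I libraries from their group means correlated at 0.033 between the mesenchyme stages. They correlated at 0.194 (H&H 31) and 0.316 (H&H 35) between the tissues of one stage, the highest of all group pairs, and from -0.184 to 0.040 in the rest. The interaction contrast treats these libraries as independent, and a block of batch within each stage was added after the data were seen. The main model has no batch term.

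Genes were named by a rule: the 15 largest log2 rises and falls among called genes with a symbol, at least 2 RPKM in the higher stage and no overlap, the 10 largest gains and losses in RPKM, of each of 47 gene lists up to 4 called members a direction in order of change, and genes the study names in mesenchyme. Members and lists were chosen with earlier results of these data known. Alternatives were other pseudocounts (0.1, 0.5), filters, scalings, variance models, a batch block, a fold over 1.3 and leaving out each library. Results of 4 genes that the rule names are not reported here; they remain in the fit and in counts over lists. No sequence is shown, since none was used here.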

Additional observations from a re-analysis of the deposited data

Results flagged for a closer look

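Each of these genes differed between mesenchyme and epithelium in its change from H&H 31 to H&H 35, by limma's interaction test at an adjusted p under 0.05, which 42.4% of all tested genes passed. Values are the log2 change in mesenchyme minus the log2 change in epithelium, so a positive value means that mesenchyme moved upward relative to epithelium. The interaction test used all 8 libraries, 2 in each group. The first 2 sets were chosen for their change in mesenchyme, so their differences are a description.

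For 14 of the 15 largest rises in mesenchyme the differences were MASP1 4.71, STOM 3.70, TRPS1 3.43, TFAP2C 3.06, ADAMTS17 5.0, MYOCD 4.41, FOXD1 3.68, BMPER 3.45, CXCR7 1.08, SOSTDC1 3.93, GLIS1 3.13, TNC 3.41, CRHBP 2.73 and JAG1 1.96.

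Among the 15 largest falls they were AKR1D1 -3.03, PODN -4.60, RDM1 -2.22, ROBO3 -3.49, HBZ -2.39, NRGN -3.03, FRK -3.04, SP5 -2.07, DNM3 -2.60, GRAP2 -2.76, CNGA3 -2.79, NPY2R -1.67 and T -2.52. RDM1 was uneven between the H&H 35 epithelium libraries (3.86 and 12.9 RPKM), and its value is uncertain.

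A further 56 genes named from the lists passed the stage test in both tissues in opposite directions. All 1005 genes of that kind passed the interaction test, so that passing it adds nothing to the opposite calls. Of those that rose in mesenchyme and fell in epithelium, the differences were FBLN1 2.43, GJA4 1.84, MYL4 2.03, SYT1 1.40, HAPLN1 3.64, COL18A1 3.62, ECM2 2.33, NID1 3.59, SEMA3A 3.44, SEMA3C 2.71, SFRP2 3.63, HEY1 2.28, IGF2 2.52, CXCL12 3.48, HOXA4 1.35, HOXA2 1.67, HOXA7 1.33, ADM 1.92, INSIG2 0.81, SRSF5 1.3, CACNA1H 1.96, GJA1 1.16 and KCNK5 2.50. IGF2, a growth factor, is an example. It went from 10.1 to 4.85 RPKM in epithelium while it rose in mesenchyme from 6.33 and 7.03 to 22.3 and 22.3. Not every mesenchyme call in this set held with a library left out. Those of HOXA2, HOXA4, HOXA7, INSIG2 and GJA1 were lost without H&H 31 mesenchyme library I.

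Of those that fell in mesenchyme and rose in epithelium, the differences were CDERMO-1 -1.35, COL9A3 -2.16, CDC6 -1.89, LIG1 -1.50, MCM3 -1.57, CENPP -1.96, KIF4A -1.69, PLK1 -1.83, BIRC5 -1.87, RBL1 -1.29, NPNT -2.78, LTBP2 -2.09, SMOC1 -2.97, SDC1 -2.40, ADAMTS8 -2.96, ADAMTS10 -1.19, CDH2 -1.17, DUSP4 -1.65, RUNX3 -3.20, FOXM1 -1.36, MRPS18A -0.97, ATP5G1 -1.22, LDHB -2.54, PKM -1.26, NSDHL -1.38, HSP90AA1 -1.31, HSPD1 -1.10, HSPE1 -1.18, HMGA2 -3.14, HELLS -1.93, HMGB2 -1.53, CACNA1B -1.16 and CACNA1I -1.27. The replication and mitosis genes in this group (CDC6, LIG1, MCM3, CENPP, KIF4A, PLK1, BIRC5) moved with their lists, described above. The mesenchyme call of CDH2 was lost without H&H 31 mesenchyme library I, among others. Some of the epithelial rises were at low levels. In mean RPKM CDERMO-1 went from 0.805 to 1.84, ADAMTS8 from 0.351 to 0.8 and CACNA1B from 0.00569 to 0.285. In mesenchyme CDERMO-1 read means of 628 and 383, and the part of mesenchymal RNA in these epithelial values was not tested.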

How the results depend on the processing

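The calls rest on 2 libraries a group. Leaving out 1 of the 8 libraries gave 1285 to 2057 genes higher and 1367 to 2479 lower in mesenchyme, the lowest counts being those without H&H 31 mesenchyme library I (1285 higher) and library II (1367 lower). A group left with a lone library was assumed to vary like the others. The other settings stayed within 1.5 times the main counts, including a fold over 1.3 (1849 higher, 1943 lower). With the batch number as a replicate block, 4399 genes were called against 4435 without it, 4250 of them shared. Each group holds a library of each batch, so this block alters the SE and not the log2 change. Of the named genes the block ended 4 calls (COL5A1, RPL8, TRPM1 and XBP1) and no other. With batch within each stage as a block, chosen after seeing the data, 5586 genes differed between the tissues against 4730, 4696 of them shared. This block too leaves the size of the difference between the tissues unaltered.

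Of 312 named genes past the test, 221 kept the call in each of 20 alternatives, 80 lost it with a library left out, and none changed sign. KCNMA1 and WNT7A, which did not pass, changed sign: KCNMA1 stood at 0.15 without H&H 35 mesenchyme library I against -0.07 (-0.29 without library II), and WNT7A at 0.07 with a pseudocount of 0.1 and at 0.19 without H&H 31 mesenchyme library II against -0.06 (-0.30 without library I). The cause was not tested. With each gene's own variance, which has fewer degrees of freedom, the risers numbered 6 among epithelial markers, 8 among cytosolic ribosomal proteins and 6 among SOX and FOX factors, and the fallers 1 among collagens, 4 among matrix proteases, 8 among guidance genes, 6 among BMP and TGF-beta genes, 7 among dermal transcription factors, 4 among respiratory chain genes, 9 among mitochondrial ribosomal proteins and 5 among cholesterol genes.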
